A study of Oryza sativa Japonica Group with 6 samples.

Results

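The miRNA described here is osa-miR1432-5p_R+1, the only product of the MIR1432 hairpin among the 486 miRNAs of rice anther that the deposited tables list. It was chosen by name, because earlier results of the same tables had shown it higher in the autotetraploid at all 3 stages of pollen development. For the diploid 402 miRNAs are listed and for the tetraploid 441, and osa-miR1432-5p_R+1 is among the 357 that stand in both. Since its own levels chose it, they are given as a description with no test.

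Anthers came from Taichung65-2x, a diploid japonica rice, and from Taichung65-4x, an autotetraploid obtained from the same line by doubling its chromosomes with colchicine and kept by selfing over many generations. Both were sampled at pre-meiotic interphase (PMA), at meiosis (MA) and at the single microspore stage (SCP). By the labels, the florets taken at each stage were longer in Taichung65-4x. Labelled anther lengths in stage order were 0.75–0.85, 1.00–1.35 and 1.40–1.55 mm in Taichung65-2x, and 0.90–1.40, 1.45–1.95 and 1.50–2.05 mm in Taichung65-4x. The range of PMA-4x thus covers that of MA-2x, and the range of MA-4x overlaps that of SCP-2x. The 6 groups are single small RNA libraries (1 each) without replicates, so every value compares libraries and not conditions, and each ratio shares its libraries with others: MA-2x, for example, enters a ratio of ploidies and a ratio of stages. Whole anthers were used, so more cells that make a miRNA and more of it per cell cannot be told apart. The sources used here give no batch, date or number of plants for a library.

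Plant miRNAs are cut from hairpin transcripts by DICER-LIKE1 and guide an ARGONAUTE protein to complementary mRNAs, which are then cleaved or held back from translation. miR1432 is a family of grasses. In rice it is known to target mRNAs for an EF-hand calcium-binding protein and for the acyl-CoA thioesterase gene OsACOT, which acts in grain filling. No mRNA was measured in these libraries.

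The sequence is shown first because length and first bases set which other listed miRNAs resemble it. It is given as in the deposited tables, with T for U, 5′ to 3′. In the first line the capitals mark the seed, bases 2 to 8, and in the second the capital marks the 1 base at the 3′ end which, by the R+1 of the name, the miRBase entry lacks. The last line leaves that base out.
osa-miR1432-5p_R+1, seed: aTCAGGAGagatgacaccgaca
osa-miR1432-5p_R+1, added base: atcaggagagatgacaccgacA
without the added base: atcaggagagatgacaccgac

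The deposited form is thus 22 nt long, and 21 nt without the added base. It holds 11 G or C bases (50%). No other listed miRNA has the same bases 2 to 8 (0 of the others). The closest listed sequence, the predicted PC-5p-72318_316, is 8 single-base edits away, and the longest run of bases it shares with any listed miRNA is 7. The file legend gives each sequence as the best-mapping read of a cluster, so a value may also count length variants of the same miRNA, the form without the added base among them. No source used here gives the genomic position of MIR1432.

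Levels are the authors' normalized reads (signal), which are copy numbers multiplied by 1 factor per library. In stage order, a single read was worth 1.35, 0.944 and 0.888 in the diploid libraries, and 1.36, 0.906 and 0.797 in the tetraploid ones. The value of osa-miR1432-5p_R+1 is a whole number of reads in all 6 libraries, and its 95% intervals are exact Poisson intervals on those reads. They cover counting error only, and hold no variation between plants or preparations.

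osa-miR1432-5p_R+1 was close to the bottom of the diploid tables until the single microspore stage and well above the library median in all 3 tetraploid libraries. In PMA-2x it stood at 5.39 normalized reads, from 4 reads (interval 1.47–13.8). In MA-2x it stood at 3.77, also from 4 reads (1.03–9.66). In SCP-2x it reached 69.3, from 78 reads (54.8–86.5).

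In PMA-4x the level was 196, from 144 reads (165–230). In MA-4x it was 164, from 181 reads (141–190). In SCP-4x it was 215, from 269 reads (190–242). All 3 tetraploid values lay above all 3 diploid values. In rising order the libraries were MA-2x, PMA-2x, SCP-2x, MA-4x, PMA-4x and SCP-4x. The counting intervals of MA-2x and PMA-2x overlap, as do those of MA-4x and PMA-4x and those of PMA-4x and SCP-4x, whereas SCP-2x is clear of its neighbours on both sides.

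**Figure D1:**
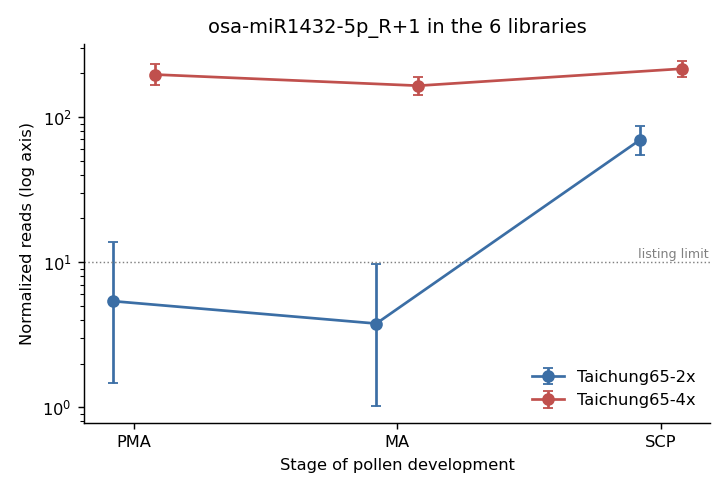
Level of osa-miR1432-5p_R+1 in normalized reads (log axis) at PMA, MA and SCP, with 1 point per library, blue for Taichung65-2x and red for Taichung65-4x. Bars are 95% exact Poisson intervals of counting error, and the dotted line is the listing limit of 10. The tetraploid points lie between 164 and 215, while the diploid points stand at 5.39 and 3.77 before reaching 69.3.

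A miRNA is listed when it exceeds 10 in at least 1 stage of that ploidy. osa-miR1432-5p_R+1 is in the diploid table through SCP-2x alone, since its PMA-2x and MA-2x values are under 10. The levels of these 2 libraries rest on 4 reads each, and their folds below are correspondingly wide.

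Within a library, rank does not depend on the scaling factor. Counted from the most abundant, osa-miR1432-5p_R+1 was at rank 374 of 402 in PMA-2x, level with 2 others, so that 6.47% of the listed miRNAs were below it. It was at rank 377 of 402 in MA-2x, level with 8 others, with 4.23% below. In SCP-2x it was at rank 113, with 71.9% of the listed miRNAs below it.

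In the tetraploid tables of 441 miRNAs it was at rank 99 in PMA-4x, 81 in MA-4x and 51 in SCP-4x, with 77.6%, 81.4% and 88.4% of miRNAs below. Over its counting interval the rank in PMA-2x could lie anywhere from 287 to 395, and in SCP-4x from 49 to 57. Among the 155 known rice mature miRNAs of each table its ranks were 147, 149 and 69 for the diploid and 59, 54 and 36 for the tetraploid.

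Its neighbours in rank show what those places mean. In PMA-2x it lay between osa-MIR167j-p3 (6.73), from the arm opposite a miRNA of the auxin response, and the predicted PC-3p-209833_80 (4.71). In MA-2x it lay between the predicted PC-5p-144485_166 (4.25) and osa-MIR820b-p3 (3.62). In SCP-2x it lay between osa-MIR2118n-p5 (69.6) and osa-miR164c (68.0), of the family that targets NAC transcription factors.

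In PMA-4x the neighbours were osa-MIR5529-p3 (197) and osa-MIR2118d-p5 (194). In MA-4x they were osa-MIR2122-p5 (165) and osa-miR167h-3p (156). In SCP-4x, osa-miR390-5p, which starts the production of trans-acting siRNAs against auxin response factors, stood just above it at 231 and osa-MIR810b-p3 just below at 207.

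**Figure D2:**
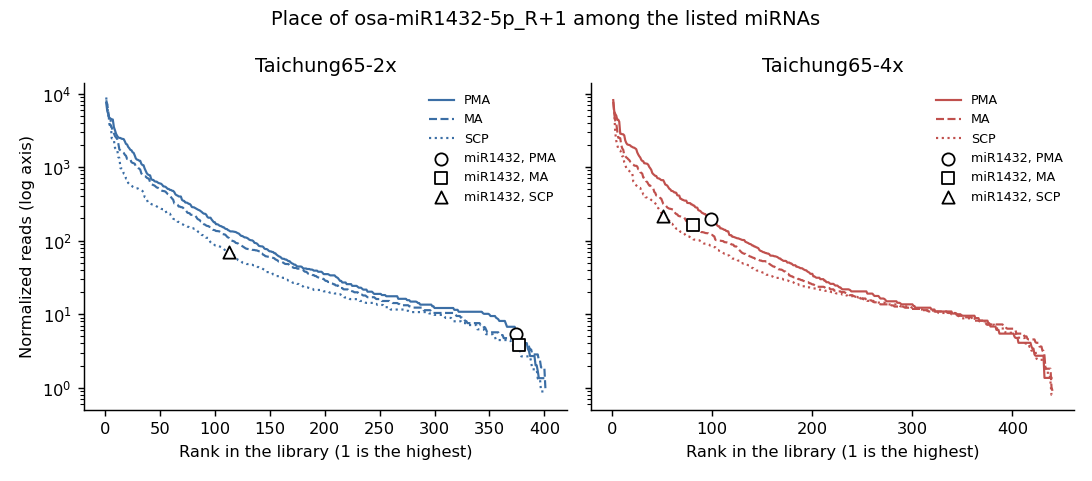
Normalized reads (log axis) against rank in the library, 1 being the most abundant, for all listed miRNAs above 0, with Taichung65-2x at left and Taichung65-4x at right. Line styles give the stage and open symbols mark osa-miR1432-5p_R+1. It sits at ranks 374, 377 and 113 in the diploid and at 99, 81 and 51 in the tetraploid.

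Against the median of the listed miRNAs of its own library, osa-miR1432-5p_R+1 stood at 0.154 times the median in PMA-2x, 0.133 times in MA-2x and 3.39 times in SCP-2x. In Taichung65-4x it stood at 7.58, 7.54 and 10.8 times the median in stage order. As a share of all listed signal it made up 0.00415%, 0.00354% and 0.0895% of the diploid libraries and 0.151%, 0.189% and 0.348% of the tetraploid ones. The share thus grew from stage to stage in Taichung65-4x, although the normalized level dipped at MA.

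The first comparison is of the ploidies within a stage. A miRNA was called higher or lower when its larger value exceeded 10 and the fold exceeded 2. The thresholds are the authors', but their test on reads was left out, and a miRNA that only the other ploidy lists was given the listing limit of 10, so that its fold is a lower bound. At PMA, osa-miR1432-5p_R+1 was 36.3-fold higher in Taichung65-4x (95% Clopper-Pearson interval of counting error 13.9–135). At MA it was 43.4-fold higher (16.7–161), and at SCP 3.10-fold higher (2.40–4.04). It met the call in each comparison, among 5.54% of tested miRNAs called higher at PMA, 5.26% at MA and 13.4% at SCP. These calls are what chose it, and the percentages are given for scale only.

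On the log2 scale the ratios were 5.18, 5.44 and 1.63, beside medians over all tested miRNAs of 0.00, −0.18 and 0.02. At PMA its ratio was the largest of 397 tested, of which 56 are listed for 1 ploidy only and enter as bounds, and of the 341 listed for both, where the next stood at 2.47. Of the miRNAs common to the ploidies that reached 50 in the higher library, the next at PMA was osa-miR528-5p, which targets mRNAs of copper proteins such as ascorbate oxidase, at 2.67-fold. At MA its ratio was the largest of 380, with 50 bounds among them, and of the 330 listed for both, ahead of osa-MIR2101-p3 at 5.57-fold (9.44 against 52.5 in the tetraploid).

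At SCP, where the diploid level had come up, it was at position 15 of 382. Of the 137 miRNAs common to the ploidies that reached 50 in either library, 5 had a larger ratio there. The leading ones were osa-miR2106_L+3R+1 (8.0 and 63.8, 7.98-fold), osa-MIR5083-p5 (7.29-fold) and osa-MIR2275c-p3 (24.4 and 108, 4.44-fold). Just behind it came osa-miR1876, at 2.72-fold. The positions 1, 1 and 15 were the same after scaling by sums, by the median ratio or by clean reads, since a scaling moves every miRNA of a stage alike. They depend on the value given to unlisted miRNAs: at 0.01 in place of 10 they became 29, 40 and 67, and of the miRNAs then ahead 28, 39 and 54 were listed for Taichung65-4x alone.

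**Figure D3:**
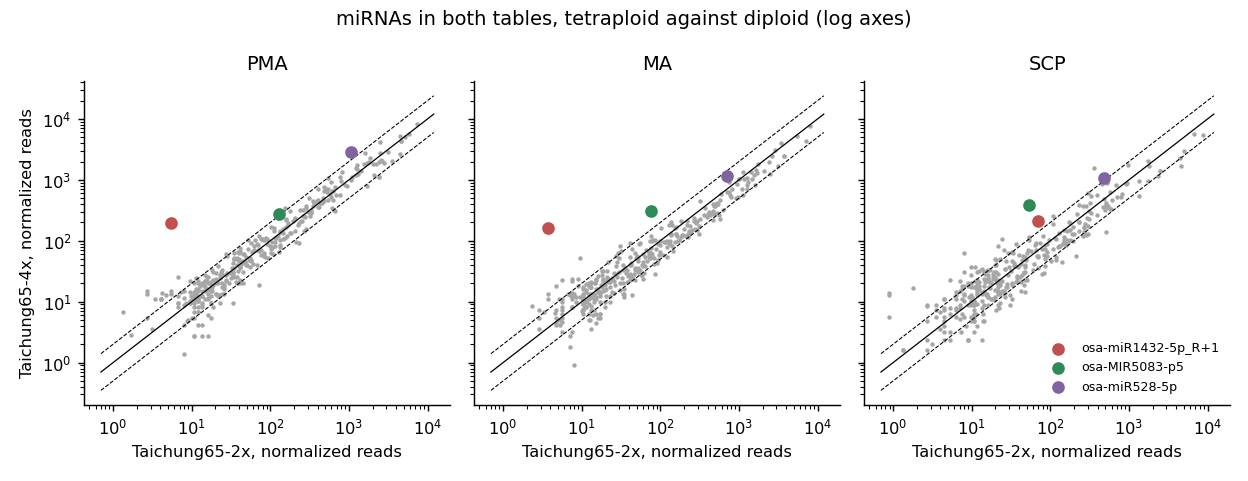
Normalized reads in Taichung65-4x against Taichung65-2x (log axes) at each stage, with 1 grey point for each of the other miRNAs in both tables. The solid line is equality and the dashed lines are 2-fold. At PMA and MA osa-miR1432-5p_R+1 (red) stands apart from the cloud at 36.3-fold and 43.4-fold, and at SCP it is nearer to it at 3.10-fold. In each panel 356 miRNAs are drawn and 1 with a value of 0 is not.

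The PMA and MA folds each rest on 4 diploid reads. The lower ends of their intervals, 13.9-fold and 16.7-fold, still lie above the whole interval at SCP, which ends at 4.04-fold. This compares counting intervals of single libraries, and the difference between stages was not tested.

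The other miRNAs of both tables that were under 10 in the same diploid library were set beside it. This list was drawn up after the values had been seen. At PMA there were 35 others in both tables. Their median in PMA-4x was 10.9 and the highest was osa-MIR167c-p3 at 25.8, against 196 for osa-miR1432-5p_R+1. At MA there were 48 others, with a median of 8.38 in MA-4x and a highest value of 52.5, against 164. Of these others, 0 at PMA and 1 at MA exceeded 50 in Taichung65-4x. miRNAs listed for Taichung65-4x alone were left out, although by the listing rule they do not exceed 10 in the diploid. Among them, osa-miR1320-5p_L-1R+1 stood at 42.1 in PMA-4x and 19.9 in MA-4x, and osa-miR6250_R+1 at 19.0 and 18.1.

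As deposited and with unlisted miRNAs at 10, only 2 miRNAs met the call for higher in Taichung65-4x at all 3 stages, osa-miR1432-5p_R+1 and osa-MIR5083-p5, a 24 nt product of another rice hairpin. osa-MIR5083-p5 went from 131 in PMA-2x to 280 in PMA-4x (2.14-fold, 1.68–2.76). At MA it stood at 76.4 and 307 (4.02-fold, 3.14–5.19), and at SCP at 53.3 and 388 (7.29-fold, 5.56–9.69). Its ratio was smallest at PMA and largest at SCP, whereas that of osa-miR1432-5p_R+1 was smallest at SCP.

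The number meeting the call at all 3 stages depends on scaling and on the value of unlisted miRNAs. By scaling it was 5 with equal sums or the median ratio, where osa-miR528-5p, osa-MIR397b-p3 and osa-miR1320-5p_L-1R+1 joined, and 6 with clean reads, where osa-miR6250_R+1 joined as well. Both osa-miR1320-5p_L-1R+1 and osa-miR6250_R+1 are listed for Taichung65-4x alone, so their folds are lower bounds: at least 4.21, 1.99 and 2.23 for osa-miR1320-5p_L-1R+1 in stage order, and at least 1.90, 1.81 and 11.3 for osa-miR6250_R+1. With unlisted miRNAs at 0.01 the number was 12, with both of them in it. Among miRNAs in both tables it was 2 in the deposited scaling, to which osa-miR528-5p and osa-MIR397b-p3 were added under each other scaling. The sequences of osa-MIR5083-p5 and osa-miR528-5p are shown beside that of osa-miR1432-5p_R+1, with bases 2 to 8 in capitals, because these miRNAs are set against it here and have other seeds.
osa-miR1432-5p_R+1: aTCAGGAGagatgacaccgaca
osa-MIR5083-p5: gTCCTTCTgattgatagaaaccaa
osa-miR528-5p: tGGAAGGGgcatgcagaggag

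Families known from monocots were taken as a list: miR437, miR444, miR528 and miR1432. No product of miR437 or miR444 is listed (0 and 0), and the list beside osa-miR1432-5p_R+1 consists of the 2 arms of miR528. osa-miR528-5p stood at 1058 and 2825 at PMA (2.67-fold, 2.46–2.90), at 703 and 1152 at MA (1.64-fold, 1.50–1.80) and at 486 and 1071 at SCP (2.20-fold, 1.99–2.44). It met the call for higher at PMA and SCP but not at MA, where its fold passes 2 under each of the other scalings.

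osa-miR528-3p, the opposite arm, was scarce. It stood at 18.9 and 20.4 at PMA (1.08-fold, 0.487–2.42). At MA the values were 2.83 and 7.25, and at SCP 2.67 and 8.77, all under 10 and so outside the test. Both arms of miR528 had a higher value in Taichung65-4x at each stage, but the interval of osa-miR528-3p spans 1-fold at all 3. At PMA and MA the folds of osa-miR1432-5p_R+1 lay far above those of osa-miR528-5p.

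**Figure D4:**
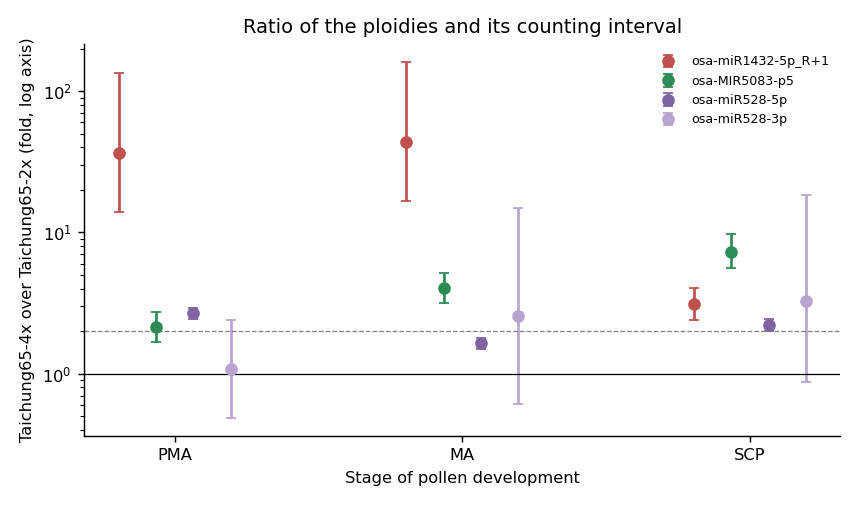
Fold of Taichung65-4x over Taichung65-2x (log axis) at each stage for osa-miR1432-5p_R+1 and 3 other miRNAs, with 95% Clopper-Pearson intervals of counting error. The solid line is 1-fold and the dashed line 2-fold. The intervals of osa-miR1432-5p_R+1 begin at 13.9, 16.7 and 2.40, and those of osa-miR528-3p cross 1-fold at every stage.

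The next comparison is of the stages within a ploidy. In Taichung65-2x the levels at PMA and MA, 5.39 and 3.77, rest on 4 reads each and their ratio of 0.70 has an interval of 0.131–3.76, so a change was not detectable at this depth. From MA-2x to SCP-2x the level was 18.4-fold higher (6.89–69.1), and from PMA-2x to SCP-2x 12.9-fold higher (4.83–48.4). It met the call in both, among 8.17% and 12.9% of tested miRNAs called higher. The ploidy ratios use the same 3 diploid libraries, so these folds are not separate evidence of their low levels.

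From MA-2x to SCP-2x its ratio was at position 2 of 355 tested, and no miRNA with at least 50 in the higher library was ahead of it (0 of 170). The next among these was osa-miR172b, of the family that targets AP2-like genes, from 40.6 to 155 (3.81-fold). From PMA-2x to SCP-2x it was at position 5 of 389, ahead of osa-MIR167j-p3, from 6.73 to 83.5 (12.4-fold, 5.13–39.1). Over all tested miRNAs the median log2 ratio was −0.67 from MA-2x to SCP-2x and −1.03 from PMA-2x to SCP-2x.

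In Taichung65-4x no stage comparison met the call for it. MA-4x over PMA-4x was 0.838-fold (0.670–1.05), SCP-4x over MA-4x 1.31-fold (1.08–1.59) and SCP-4x over PMA-4x 1.10-fold (0.892–1.35). From MA-4x to SCP-4x it was at position 97 of 390, and 16 of 164 miRNAs with at least 50 in the higher library were ahead, osa-miR6250_R+1 first at 6.25-fold. osa-miR172a (3.07-fold) and osa-MIR167j-p3 (2.79-fold) followed.

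The direction between MA-4x and PMA-4x depends on scaling. It was −0.25 log2 as deposited, and 0.33, 0.31 and 0.34 when scaled to equal sums, by the median ratio and by clean reads. SCP-4x over PMA-4x, at 0.13 log2 as deposited, passed 2-fold under each of them, at 1.22, 1.15 and 1.33. In the deposited scaling no tetraploid stage ratio passed 2-fold, and only SCP-4x over MA-4x had an interval clear of 1-fold (1.08–1.59). In the other 3 scalings the level climbed from PMA to SCP. The diploid order, with SCP-2x above PMA-2x and MA-2x, was kept in all of them.

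Between its lowest library, MA-2x at 3.77, and its highest, SCP-4x at 215, osa-miR1432-5p_R+1 differed 56.8-fold. This was the widest range of the 200 miRNAs that stand in both tables and reach 50 in a library. It crosses ploidy and stage, and its lower end rests on 4 reads. The next were the predicted PC-5p-11519_1490 (20.9-fold), osa-MIR171b-p5 (19.2-fold) and osa-miR2275a_1ss15AG (13.9-fold).

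By Pearson correlation of log2(value + 1) over the 6 libraries, the most like it of the 199 others of that set were osa-miR5788 (r = 0.71), PC-5p-72854_262 (0.68), osa-MIR814c-p5_1ss14GA (0.65), osa-miR812g (0.65) and osa-MIR5083-p5 (0.65). The points share the libraries and their scaling, and the values are a description. Diploid levels of osa-miR5788 were 24.2, 27.4 and 50.2 and tetraploid levels 28.5, 55.3 and 63.0, a range far narrower than that of osa-miR1432-5p_R+1. Of these 5 none was among the 5 most like after scaling to equal sums (0), when osa-MIR810b-p3 came first at 0.79.

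The other miRNAs of 21 nt, its length without the added base, were mostly called lower where they were called at MA and SCP. Without osa-miR1432-5p_R+1, 9 of the 208 tested miRNAs of 21 nt were called higher and 4 lower at PMA, with a median of 0.07 log2. At MA 1 of 199 was called higher and 26 lower (median −0.47), and at SCP 4 of 184 higher and 33 lower (median −0.43). Of the known rice mature miRNAs of 21 nt, 4 of 88, 1 of 86 and 3 of 89 were called higher in stage order, and 1, 10 and 16 lower, with medians of 0.15, −0.48 and −0.43. The miRNAs of 22 nt, its deposited length, had medians of −0.30, −0.17 and 0.32. Without the families miR2118 and miR2275 the 22 nt medians were 0.09, 0.33 and −0.04. At SCP, in the deposited scaling, the intervals of these medians were −0.17 to 0.52 and −0.57 to 0.38. Both span 0, so neither 22 nt list is shown to lie on a given side of it. The 21 nt median there had an interval of −0.56 to −0.28. That of the full 22 nt list lay above it, whereas that of the list without the families overlapped it. The list of 22 nt was added after the values were seen.

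Over all other tested miRNAs the calls were 21 higher and 22 lower of 396 at PMA (median 0.00), 19 and 35 of 379 at MA (−0.18) and 50 and 39 of 381 at SCP (0.02). With osa-miR1432-5p_R+1 counted, lower calls made up 5.54%, 9.21% and 10.2% of those tested. The balance at MA turns with the scaling: 20 higher and 35 lower as deposited became 42 and 14 with equal sums, and at SCP 51 and 39 became 84 and 17. At MA the scalings raised every ratio by 0.31, 0.30 and 0.31 log2, and at SCP by 0.35, 0.05 and 0.04. Each of them raised the ploidy ratio of osa-miR1432-5p_R+1 at all 3 stages.

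The libraries carried the miRNAs known from grass anthers. The miR2118 family, which triggers phased siRNAs before meiosis, made up 25.6%, 12.9% and 5.99% of the listed signal of the diploid libraries in stage order, and 19.6%, 13.9% and 10.4% of that of the tetraploid ones. The miR2275 family, whose phased siRNAs appear around meiosis, made up 14.8%, 13.8% and 16.2% in the diploid and 12.5%, 14.5% and 17.8% in the tetraploid. Its share was thus highest at SCP in both ploidies, not at MA. The listed miRNAs summed to between 77399 and 113099 reads per library. At PMA and MA, where osa-miR1432-5p_R+1 had 4 diploid reads, these sums were 96463 and 113099 in Taichung65-2x beside 95347 and 95913 in the tetraploid. The part of depth in its ratios was not tested.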

How the data were processed

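The authors made the libraries from total anther RNA (TruSeq small RNA chemistry, Illumina HiSeq2500). Their pipeline, ACGT101-miR, filtered the reads, BLAST placed them on miRBase precursors, and RNAfold gave the hairpins. No source used here names the genome build. The deposited signal is copy number multiplied by 1 correction factor per library.

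The value of 1 read was taken as the smallest value above 0 of a library. Between 72.3% and 76.2% of a library's values came out as whole reads (tolerance 0.01), so no count test was run. A miRNA absent from a table was set at 10, a listed 0 at 0.01. miRNAs whose larger value passed 10 were tested, and those past 2-fold were called. With 1 library per group no p and no SD is given. Intervals of levels and folds (95%) are exact Poisson or Clopper-Pearson and cover counting error only.

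Named miRNAs are the miRNA itself, the 5 most correlated with it, up to 3 with larger ratios (at least 50 in the higher library), its rank neighbours, those called higher at all 3 stages, the called monocot miRNAs and any with the same seed. Chosen after their values were seen were the next miRNA behind it in a ratio or range, those added at all 3 stages by another scaling, the sequence comparison, osa-miR528-3p, osa-miR162a and the highest of each low diploid list. The member, the calls, the lists (21 nt, known rice 21 nt, monocot) and the alternatives (scaling, thresholds, folds, pseudocounts of 1 and 10, miRNAs counted) were chosen with earlier results of these data known. Lists by 22 nt, R+1, first base and low diploid level, and unlisted miRNAs at 0.01, were added after the values were seen. Scripts were tested on simulated data, with Python 3.11.15, NumPy 2.4.6, SciPy 1.17.1, pandas 2.3.3 and Matplotlib 3.10.9.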

Additional observations from a re-analysis of the deposited data

How the results depend on the processing

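The ploidy ratios of osa-miR1432-5p_R+1 stayed above 1 log2 in 15 of 15 alternatives. Each of the scalings raised these ratios at every stage, so only the pseudocounts could have brought them lower. With a pseudocount of 10 the ploidy ratios were 3.74 at PMA and 3.66 at MA, and SCP-2x over MA-2x was 2.53. Scaled in turn to equal sums, by the median ratio and by clean reads, MA-4x over PMA-4x was 0.33, 0.31 and 0.34, SCP-4x over MA-4x was 0.89, 0.84 and 0.98, and SCP-4x over PMA-4x was 1.22, 1.15 and 1.33. The scaling alone makes these differences. The share of miRNAs below it in SCP-2x, PMA-4x, MA-4x and SCP-4x was 68.3%, 72.3%, 77.0% and 85.7% among miRNAs in both tables, and 55.5%, 61.9%, 65.2% and 76.8% among known rice miRNAs. Of the 5 miRNAs most like it, 2 were kept with Spearman correlation and 0 with equal sums.

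Counts of called miRNAs follow, first under those of the 3 scalings that moved them by over 1.5 times, then with a limit of 50, a fold over 4 and a fold over 1.5. At PMA 7, 4 and 60 were higher, and 7, 2 and 60 lower. At MA 42, 41 and 43 were higher by scaling, then 8, 3 and 56, and 14, 15 and 14 lower by scaling, then 15, 0 and 100. At SCP 84 were higher with equal sums, then 16, 9 and 89, and 17 lower with equal sums, then 16, 1 and 99. From MA-2x to SCP-2x 54, 79 and 97 were higher by scaling, then 9, 9 and 50. From PMA-2x to SCP-2x 80, 95 and 116 were higher by scaling, then 21 and 20 with the limit of 50 and the fold over 4.

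With unlisted miRNAs set at 0.01, an alternative chosen after seeing the data, 48, 58 and 98 miRNAs were higher at PMA, MA and SCP, and 48 were lower at PMA. The floor alone makes this difference.

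The median of the 21 nt list was 0.16 at PMA with clean reads, −0.17, −0.18 and −0.16 at MA with the scalings and −0.088 at SCP with equal sums. For known rice miRNAs of 21 nt it was −0.17, −0.18 and −0.16 at MA and −0.083 at SCP with equal sums. In the monocot list only osa-miR528-5p was tested beside osa-miR1432-5p_R+1 at MA and SCP. The ratio of osa-miR528-5p was 1.02, 1.01 and 1.03 log2 at MA and 1.49 at SCP with equal sums. In these the shift of all ratios by the scaling is the cause. No alternative reversed a called value (0).

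Depth limits the PMA-2x and MA-2x levels, at 4 reads each. Leaving out a replicate could not be run with 1 library per group. A fit of ploidy over the 3 stages taken as pairs was not run, since osa-miR1432-5p_R+1 was chosen on these values.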

Other observations

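Lists added after the values were seen describe other miRNAs that share a feature of the osa-miR1432-5p_R+1 sequence. Of the 58 listed miRNAs of 22 nt, 28 belong to miR2118 or miR2275, and 6 begin with A, as osa-miR1432-5p_R+1 does. Over all tested miRNAs, 5.54%, 5.26% and 13.4% were called higher in the tetraploid and 5.54%, 9.21% and 10.2% lower, here and below in stage order. Of the 53, 45 and 45 other 22 nt miRNAs tested, 3, 0 and 4 were called higher (5.66%, 0% and 8.89%) and 9, 4 and 2 lower (17.0%, 8.89% and 4.44%), with medians of −0.30, −0.17 and 0.32 log2. Without miR2118 and miR2275 the medians were 0.09, 0.33 and −0.04, and 3 of 25, 0 of 19 and 1 of 20 were called higher and 3, 1 and 1 lower. The known rice miRNAs of 22 nt had medians of −0.59, −0.25 and 0.45. Of the 19, 19 and 20 others tested there, 0, 0 and 2 were called higher (0%, 0% and 10%). Those called lower numbered 3, 1 and 1 (15.8%, 5.26% and 5%). The highest log2 ratios among the other 22 nt miRNAs were 1.33, 0.71 and 2.15, of which the first 2 are below the 5.18 and 5.44 of osa-miR1432-5p_R+1 and the last is above its 1.63.

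Of the 16 names that end in R+1, the other members tested numbered 12, 11 and 13, and 2, 1 and 4 of them were called higher (16.7%, 9.09% and 30.8%) and 0, 1 and 3 lower (0%, 9.09% and 23.1%), with medians of 0.72, −0.23 and −0.12. Of those tested, 3, 2 and 4 are listed for 1 ploidy only and enter as bounds. Of the 165 miRNAs that begin with A (34.0% of the 486), 8 of 121, 12 of 119 and 26 of 129 others tested were called higher and 6, 4 and 7 lower, with medians of 0.03, 0.12 and 0.36. The shares called higher were 6.61%, 10.1% and 20.2%, beside 5.54%, 5.26% and 13.4% over all tested. Bounds made up 25 of 121, 30 of 119 and 38 of 129 of this list. Over all other tested miRNAs they were 56 of 396, 50 of 379 and 68 of 381. A link with the first base was not tested.

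At SCP, 72 other miRNAs in both tables were under 10 in Taichung65-2x. Their median in Taichung65-4x was 7.97 and their highest value was 63.8, that of osa-miR2106_L+3R+1. Outside this list, osa-miR6250_R+1, listed for Taichung65-4x alone, stood at 113 in SCP-4x. The lowest correlation with osa-miR1432-5p_R+1 was that of osa-miR162a, whose family targets DICER-LIKE1 mRNA, at −0.96 (diploid levels 769.6, 781 and 608 in stage order, tetraploid levels 559, 532 and 469). With equal sums this correlation was −0.07. Its levels span a far narrower range, and the value is a description over 6 libraries that share their scaling.

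Over all listed signal, the share of osa-miR1432-5p_R+1 in Taichung65-4x was 36.4, 53.4 and 3.88 times its diploid share in stage order.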
